A study of Chlamydomonas reinhardtii with 20 samples.

Results

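The transcripts compared here are those of 2 complemented lines and of the mutant they derive from, in the green alga Chlamydomonas reinhardtii after 4 h of white light without added biliverdin (BV). The line ho1C2 gave 2 libraries, the line ho1C1 gave 2 and the mutant hmox1 gave 2, so that 6 of the 20 libraries of the series entered, chosen by their labels. Acetate medium fed all 6 cultures during growth without light, methanol, the solvent of BV, was present in each, and lamps then gave 150 µmol photons per square metre and second. Other libraries of the series serve as background: the wild type 4A+ at 4 h without BV, 4A+ and hmox1 at 4 h with 0.1 mM BV, and ho1C2 and ho1C1 without BV in the dark and at 0.5 h. The labels call ho1C2 and ho1C1 complemented strains of hmox1 and say no more of the construct, of the promoter that drives it or of how each line was isolated. The treatment protocol speaks of the short exposure alone, and the 4 h groups follow the labels of the single samples.

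Heme oxygenase opens the ring of heme and releases iron, carbon monoxide and biliverdin, a linear tetrapyrrole or bilin. In plants and algae the enzyme sits in the plastid, where bilin reductases turn biliverdin into further bilins. Chlamydomonas makes bilins although it has no phytochrome, the light receptor that carries a bilin in land plants. Complementation puts a working copy of a lost gene back into a mutant, and a pair of complemented lines lets changes found in both be told from those found in one.

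Levels are in RPKM, which scales reads by gene length and by library size, so levels of different genes can be set side by side. Of 17737 gene IDs, 13871 were tested. Files and reference pair none of these IDs with a gene name, so genes are given by their IDs, no function is attached to them, and the targeted gene was not analysed here. Relative depth, read from the steps in low values, was 1.08 and 0.62 in ho1C2, 1.57 and 1.90 in ho1C1, and 0.75 and 0.58 in hmox1, with the median of all 20 libraries set to 1. Absolute depth is unknown. The hmox1 pair was the least alike of the 10 pairs, with a median absolute log2 difference between its libraries of 0.155, against 0.084 in ho1C2 and 0.077 in ho1C1. Each value averages a culture, so fewer cells with a transcript and less transcript per cell cannot be told apart. Replicates are called biological with no further detail, and a p-value here speaks only of the scatter among these cultures, which may be technical. That scatter is pooled over all 10 groups, so SE and p-values against hmox1 do not carry the wider spread of the hmox1 pair.

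Past 2-fold, more genes were lower than higher in both lines against hmox1. In ho1C2, 92 genes were higher and 249 lower than in hmox1 by at least 2-fold (0.663% and 1.8% of tested genes), and in ho1C1 the numbers were 38 and 145 (0.274% and 1.05%). Past 2-fold in each line, 31 genes were higher and 129 lower (0.223% and 0.93%). The 31 genes made up 33.7% of the ho1C2 list and 81.6% of the ho1C1 list, and the 129 genes 51.8% and 89%. The lists share the hmox1 libraries, so a deviation of that pair enters both. Among the 31 genes the log2 difference had a median of 1.60 in ho1C2 (1.03 to 2.39) and 1.37 in ho1C1 (1.02 to 2.06), and among the 129 genes -1.6 (-4.36 to -1.02) and -1.33 (-3.83 to -1.0). Over all tested genes the median was -0.02 and -0.05. These values chose the genes and are a description. A called gene had a Benjamini-Hochberg adjusted p under 0.05 in limma, fitted over all 20 libraries, and 2-fold means a difference of 1 or more on the log2(RPKM + 1) scale. Leaving out 1 of the 6 libraries at a time gave 28 to 37 higher and 114 to 158 lower genes. With a pseudocount of 0.1 in place of 1, the counts past 2-fold were 364 higher and 389 lower in ho1C2, near balance, and 67 and 231 in ho1C1.

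**Figure D1:**
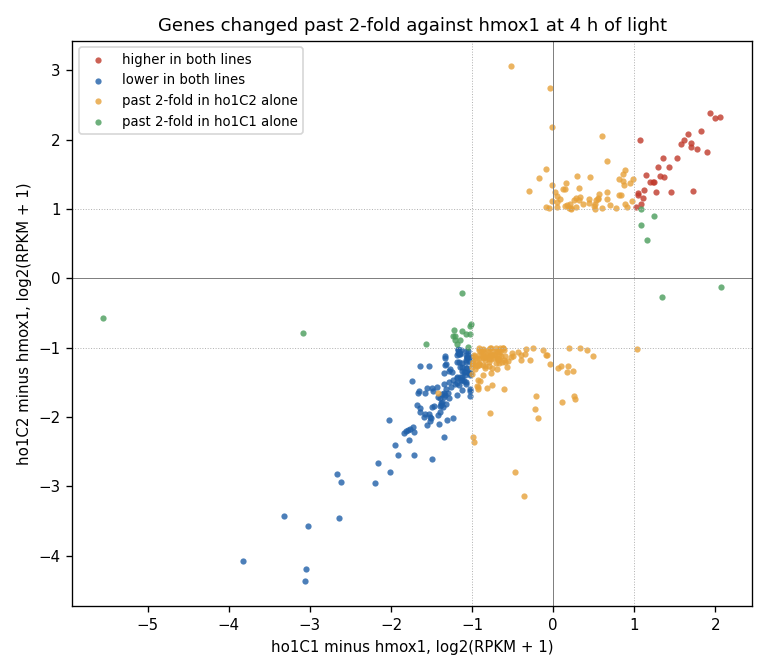
Each point is 1 of the 363 genes past 2-fold in at least 1 line, with the difference of ho1C1 minus hmox1 (x axis) against ho1C2 minus hmox1 (y axis), both as log2(RPKM + 1); dotted lines mark 2-fold, and both axes share the hmox1 libraries. The 31 red and 129 blue points lie past 2-fold in both lines, and Cre03.g162800, at 1.03 and -1.02, lies past 2-fold in opposite directions and is drawn with the ho1C2 genes.

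Below 2-fold the lists were much longer and less stable. At the adjusted p alone, limma called 2230 genes higher and 3171 lower in ho1C2 (16.1% and 22.9%), and 1131 higher and 2718 lower in ho1C1 (8.15% and 19.6%). When each group was given its own spread these became 1142 and 1890 in ho1C2, and 420 and 1251 in ho1C1. In ho1C1 the balance depended on scaling, since median-ratio factors gave 1742 higher and 1752 lower. Single libraries also moved it, as 583 genes were called higher without ho1C1 replicate 1 and 1703 without hmox1 replicate 2, and 1725 lower without ho1C1 replicate 2.

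Among the genes higher in both lines, g6310 had the largest rise by the smaller of its 2 differences. It stood at 54.26 and 55.79 RPKM in ho1C2 and at 46.46 and 44.71 in ho1C1, against 9.69 and 10.6 in hmox1. The 4 line libraries lay far above both hmox1 libraries, by a log2 difference of 2.33 in ho1C2 (SE 0.06, adjusted p = 1.63e-15, limma) and 2.06 in ho1C1 (SE 0.06, adjusted p = 1.35e-14). Cre01.g036950 was at 83.25 and 83.7 RPKM in ho1C2 and 69.26 and 64.84 in ho1C1, against 15.61 and 16.31 in hmox1. Its differences were 2.32 (SE 0.05, adjusted p = 5.39e-16) and 2.00 (SE 0.05, adjusted p = 6.94e-15), and 4A+ had 53.5 and 55.47. Cre12.g555500 reached 23.14 and 21.21 RPKM in ho1C2 and 17.03 and 14.68 in ho1C1, against 3.39 and 3.43 in hmox1. It differed from hmox1 by 2.39 (SE 0.08, adjusted p = 1.9e-13) and 1.93 (SE 0.08, adjusted p = 7.47e-12), and was at 26.84 and 28.23 in 4A+.

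Abundant transcripts were among the genes that rose. Cre06.g293950 was at 623.01 and 619.55 RPKM in ho1C2 and 524.95 and 486.8 in ho1C1, against 137.23 and 146 in hmox1, a log2 difference of 2.13 (SE 0.05, adjusted p = 8.5e-16, limma) and 1.83 (SE 0.05, adjusted p = 1.18e-14). Cre02.g081050 and Cre03.g180750, picked after their values were seen for a mean of at least 500 RPKM over all libraries, averaged 825.7 ± 15.3 and 813.1 ± 15.9 RPKM in ho1C2 (SD, n = 2). They averaged 739 ± 15.9 and 762 ± 42.4 in ho1C1, against 297 ± 28.4 and 295.8 ± 37.5 in hmox1. In 4A+ all 3 of these genes were higher still, with means of 707.2, 1017 and 946.8 RPKM. Cre10.g428550 was a weaker transcript that rose, with 13.86 and 9.73 RPKM in ho1C2 and 12.2 and 9.75 in ho1C1, against 2.08 and 2.91 in hmox1 (log2 differences 1.86 and 1.78, SE 0.15, adjusted p = 4.51e-08 and 1.66e-07).

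The gene g16696 had another pattern. It was at 7.34 and 7.21 RPKM in ho1C2 and 7.59 and 7.75 in ho1C1, against 1.75 and 0.97 in hmox1, and 4A+ was lower again at 0.42 and 0.7. Its log2 differences from hmox1 were 1.83 (SE 0.14, adjusted p = 1.1e-08, limma) and 1.90 (SE 0.14, adjusted p = 1.37e-08). Against 4A+ the lines differed by 2.41 (SE 0.14, adjusted p = 1.12e-10) and 2.48 (SE 0.14, adjusted p = 1.24e-10), in comparisons where 45.1% and 43.5% of all genes were called higher and 11.4% and 9.76% lower. Median-ratio factors moved the median of all genes by -0.23 and -0.20 there. The lines thus stood above both the mutant and the wild type, and their dark libraries held 6.36 to 7.58 RPKM. At 0.5 h it was lower than in the dark, at 2.91 and 2.89 RPKM in ho1C2 and 2.86 and 2.47 in ho1C1 (log2 changes -0.95 and -1.14, SE 0.14, adjusted p = 6.1e-06 and 5.57e-07, limma).

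**Figure D2:**
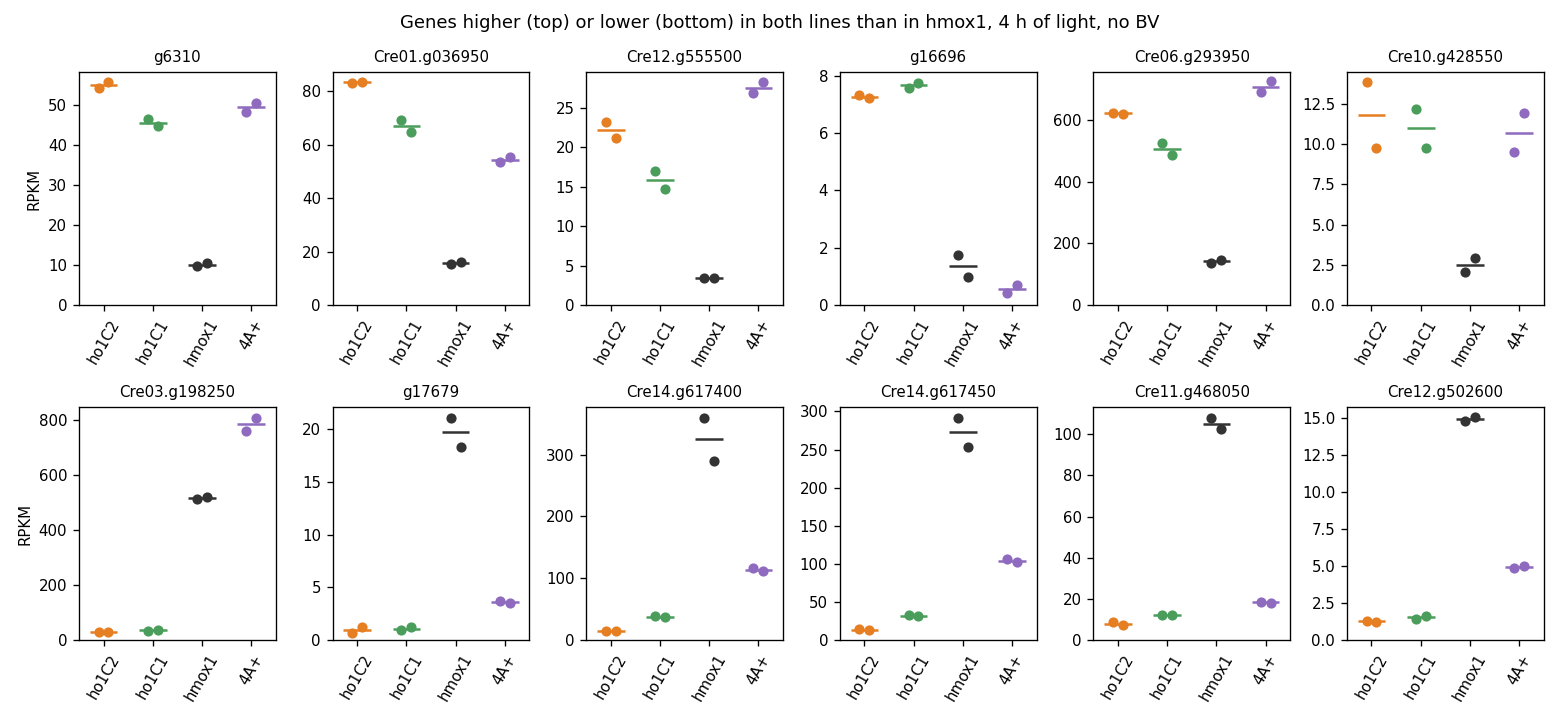
RPKM of each library (points) and group mean (short lines) at 4 h without BV for the 6 genes with the largest rises (top row) and the 6 with the largest falls (bottom row) in both lines; every y axis starts at 0 and has its own scale. The genes were chosen with no overlap between the libraries of either line and hmox1, and 4A+ lies on the side of the lines for most genes but not for g16696 or Cre03.g198250.

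By the smaller of its 2 differences, the largest fall in both lines was that of Cre03.g198250. It had 28.84 and 30.35 RPKM in ho1C2 and 34.35 and 36.35 in ho1C1, against 511.01 and 518.33 in hmox1. The log2 differences were -4.08 (SE 0.07, adjusted p = 2.24e-17, limma) and -3.83 (SE 0.07, adjusted p = 1.35e-16). The wild type was on the mutant's side, at 759.97 and 807.52 RPKM, so that both lines fell below 4A+ as well, by 4.68 and 4.43 on the log2 scale (SE 0.07, adjusted p = 9.82e-19 and 5.13e-18). In the lines it stayed low at every time. Mean levels in ho1C2 were 27.18 RPKM before light, 29.09 after 0.5 h and 29.59 after 4 h, and those in ho1C1 26.55, 32.58 and 35.35 at the same times.

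The other leading falls were of genes that 4A+ also held below hmox1. Cre11.g468050 was at 8.72 and 7.11 RPKM in ho1C2 and 12.05 and 12.05 in ho1C1, against 108.12 and 102.36 in hmox1 and 18.65 and 18.02 in 4A+. Its log2 differences from hmox1 were -3.58 (SE 0.07, adjusted p = 7.85e-17, limma) and -3.02 (SE 0.07, adjusted p = 1.51e-15). At 0.5 h both lines stood near the level that hmox1 showed at 4 h, with 108.11 and 107.97 RPKM in ho1C2 and 109.7 and 108.16 in ho1C1. Their dark levels were 7.38 and 7.59, and 3.51 and 3.63.

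Next to each other in the RefSeq order, Cre14.g617400 and its neighbour Cre14.g617450 took the same course. Cre14.g617400 was at 14.14 and 15.37 RPKM in ho1C2 and 38.18 and 37.42 in ho1C1, against 359.45 and 289.91 in hmox1. Its dark levels were 4.96 and 3.59 in ho1C2 and 2.26 and 2.12 in ho1C1, and at 0.5 h it held 77.59 and 83.49, and 83.59 and 96.8. In hmox1 at 4 h it thus stood well above the 0.5 h level of the lines, and in hmox1 with BV it was at 21.29 and 25.2. The wild type shared both traits in weaker form, with 115.92 and 112.17 RPKM in 4A+ without BV and 26.48 and 26.86 with BV. Both lines were below 4A+ at 4 h, with log2 differences of -2.87 in ho1C2 and -1.57 in ho1C1 for Cre14.g617400. For Cre14.g617450 these were -2.83 and -1.68. The lines also differed from each other at 4 h, by -1.30 for Cre14.g617400 (SE 0.12, adjusted p = 1.01e-06, limma) and -1.15 for Cre14.g617450 (SE 0.07, adjusted p = 3.63e-09), with the lower level in ho1C2. In the dark the sign was the opposite, with ho1C2 higher by 0.71 (SE 0.12, adjusted p = 0.00124) and 0.88 (SE 0.07, adjusted p = 2.12e-07).

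Weaker transcripts among the leading falls were g17679 and Cre12.g502600. The gene g17679 was at 0.65 and 1.24 RPKM in ho1C2 and 0.92 and 1.22 in ho1C1, against 21.07 and 18.32 in hmox1 (log2 differences -3.43 and -3.32, SE 0.11, adjusted p = 8.51e-14 and 2.6e-13, limma). It was 1 of 3 genes with a mean under 1 RPKM in one of the 3 groups and of 10 or more in another. Cre12.g502600 was at 1.3 and 1.21 RPKM in ho1C2 and 1.45 and 1.59 in ho1C1, against 14.77 and 15.01 in hmox1 (-2.82 and -2.66, SE 0.08, adjusted p = 1.76e-14 and 7.05e-14). Added BV raised both genes in 4A+, to 14.58 and 14.88 RPKM for g17679, against 3.72 and 3.56 without it, and to 48.52 and 42.54 for Cre12.g502600, against 4.85 and 5.02 (log2 differences 1.76 and 2.97, SE 0.11 and 0.08, adjusted p = 1.94e-10 and 2.64e-15).

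Further neighbouring genes fell together. Cre10.g445000 and Cre10.g445050 were lower by 1.83 and 2.18 in ho1C2 and by 1.68 and 1.76 in ho1C1, with means of 8.825 and 9.545 RPKM in ho1C2 and 9.88 and 13.11 in ho1C1, against 33.9 and 46.94 in hmox1. Cre10.g428966 and Cre10.g429000 had means of 1.905 and 14.29 RPKM in ho1C2 and 2.555 and 19.27 in ho1C1, against 10.12 and 60.22 in hmox1. All 8 of these differences from hmox1 had adjusted p values of at most 6.39e-10 in limma. Of the 129 genes lower in both lines, 100 have a place in the RefSeq v5.5 order, and 16 of those lie next to another gene of the list. Of the 31 higher genes, 25 have a place and 9 lie next to another. These counts were compared with no share for other genes, so whether the lists cluster was not tested. In 4A+ the pair Cre10.g445000 and Cre10.g445050 moved in opposite directions with BV, to means of 79.59 and 14.18 RPKM with BV, against 17.05 and 35.23 without.

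Most genes of both lists had responded to light in libraries that took no part in choosing them. At 0.5 h against the dark in ho1C2, 88 of the 129 lower genes rose at least 2-fold (68.2%) and 2 fell, and in ho1C1 96 rose (74.4%) and 1 fell. Among all tested genes 6.41% rose and 14.3% fell at least 2-fold in ho1C2, and 7.09% and 16.9% in ho1C1. The median log2 change of the 129 genes was 1.69 and 2.00, and that of all genes -0.31 and -0.38. Of the 31 genes higher in both lines, 20 rose at least 2-fold at 0.5 h in each line (64.5%), with median changes of 1.31 in ho1C2 and 1.35 in ho1C1. Median-ratio factors moved the median of all genes by 0.31 and 0.37 in these comparisons, and then 104 and 108 of the 129 genes and 22 and 23 of the 31 rose at least 2-fold, against 10.8% and 12.7% of all genes.

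The lists differed in their levels at 4 h. The median level of the 129 lower genes in ho1C2 was 6.92 RPKM before light, 26.5 after 0.5 h and 5.38 after 4 h, and in ho1C1 4.77, 28.9 and 6.85. In hmox1 at 4 h it was 19.3, and in 4A+ 7.54. The median of the 31 higher genes was 9.96, 40.7 and 22.7 RPKM in ho1C2 and 9.34, 40.3 and 22.6 in ho1C1, against 6.71 in hmox1 and 23.2 in 4A+. The values at 4 h in the lines and hmox1 chose the genes and are given as a description. No dark or 0.5 h library of hmox1 was analysed here, so whether the mutant passed through the same early levels is not known from these data.

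**Figure D3:**
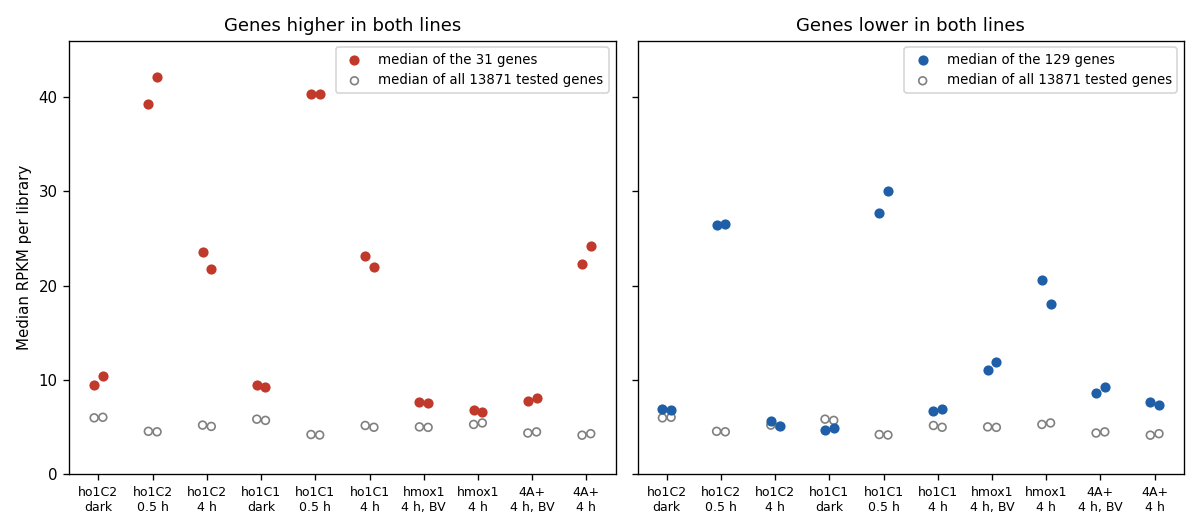
Median RPKM per library (filled points, 2 per group) of the 31 genes higher and the 129 genes lower in both lines, beside the median of all 13871 tested genes (open points), in each of the 10 groups. Both lists peak at 0.5 h in both lines, and at 4 h hmox1 without BV stands at 6.71 for the higher genes and 19.3 for the lower ones.

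Added BV in the wild type separated the lists. Of the 31 genes higher in both lines, 26 fell in 4A+ with BV and none rose (27.4% and 32.1% of all genes did), and 20 of them fell at least 2-fold (64.5%), where 3.43% of all tested genes did. Their median log2 change was -1.18, against 0.03 for all genes, and g6310 for example was at 16.89 and 16.8 RPKM with BV, against 48.3 and 50.5 without. Of the 129 lower genes 47 rose and 40 fell with BV, 21 and 8 of them at least 2-fold (16.3% and 6.2%, against 5.22% and 3.43% of all genes), with a median of 0.09. Between hmox1 and 4A+ with BV, 16 of the 129 were at least 2-fold higher in hmox1 and 10 lower (12.4% and 7.75%, against 3.89% and 0.995% of all genes), and none of the 31 passed 2-fold in either direction. Median-ratio factors moved the median of all genes by -0.13 in that comparison, and 13 of the 129 were then at least 2-fold higher and 14 lower, so the balance turned round. Neither comparison uses any of the 6 libraries.

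The lines were then tested against each other, since a change past 2-fold in 1 line and not in the other does not show a difference. In ho1C2 against ho1C1 at 4 h, limma called 1039 genes higher and 642 lower at an adjusted p under 0.05 (7.49% and 4.63%), and 30 higher and 34 lower of at least 2-fold (0.216% and 0.245%). With median-ratio factors the calls were 794 and 813, so the excess of higher calls depends on scaling. Higher calls numbered 591 to 672 without a library of ho1C2 and 555 to 635 without one of ho1C1, and lower calls fell to 363 without ho1C2 replicate 2 and to 336 and 424 without ho1C1 replicates 1 and 2. Of the 129 lower genes 59 were lower in ho1C2 than in ho1C1 and 1 was higher, and of the 31 higher genes 12 were higher in ho1C2 and 1 lower. The 4 h values of both lines chose these genes, so the counts are a description. In the dark 49 of the 129 were called higher in ho1C2 and 1 lower (38% and 0.775%, against 2.77% and 0.67% of all genes). At 0.5 h 16 were called higher and 12 lower (12.4% and 9.3%, against 10.8% and 2.21%). Of the 31 genes, 2 were called higher and 1 lower in the dark, and none at 0.5 h. Of the 61 genes past 2-fold higher than hmox1 in ho1C2 alone, 35 were also called higher in ho1C1, as were 8.15% of all tested genes. Of the 120 lower ones 96 were also called lower there, as were 19.6% of all tested genes. Both comparisons use the same hmox1 libraries, so a deviation of that pair enters these counts. Only 21 of the 61 and 24 of the 120 differed between the lines by at least 2-fold.

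Among the 21 genes past 2-fold above hmox1 in ho1C2 only, 4 were called higher and 1 lower than hmox1 in ho1C1 (19% and 4.76%). Of all tested genes 8.15% were called higher and 19.6% lower there. The same ho1C1 and hmox1 libraries chose the 21 genes, so these counts are a description. The leading genes were Cre02.g102050, Cre08.g368850 and Cre02.g103300. Cre02.g102050 was at 135.98 and 143.73 RPKM in ho1C2, against 19.06 and 19.8 in ho1C1 and 19.11 and 20.75 in hmox1. The mutant and ho1C1 overlapped, and ho1C2 was higher than ho1C1 by 2.79 (SE 0.06, adjusted p = 1.99e-15, limma). Cre08.g368850 was at 50.19 and 52.52 RPKM in ho1C2, against 3.17 and 3.58 in ho1C1 and 5.6 and 4.94 in hmox1, and ho1C2 exceeded ho1C1 by 3.58 (SE 0.45, adjusted p = 0.000399). Cre02.g103300 was at 4.7 and 5.33 RPKM in ho1C2, against 0.28 and 0.33 in ho1C1 and 0.28 and 0.36 in hmox1 (ho1C2 minus ho1C1 2.20, SE 0.09, adjusted p = 1.27e-11).

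The same 3 genes were already high in ho1C2 before light. In the dark Cre02.g102050 was at 176.1 and 178.3 RPKM in ho1C2, against 16.81 and 17.25 in ho1C1, Cre08.g368850 at 66.54 and 70.8, against 1.81 and 3.32, and Cre02.g103300 at 7.34 and 7.54, against 0.33 and 0.36. Their dark differences were 3.31, 4.32 and 2.65 (SE 0.06, 0.45 and 0.09, adjusted p = 9.91e-17, 0.000285 and 1.5e-12, limma). At 4 h in hmox1 with BV they reached 436.65 and 403.56, 548.36 and 474.9, and 3.63 and 2.89 RPKM. In 4A+ with BV they were at 3.08 and 3.02, 2.73 and 2.64, and 0.19 and 0.17. Of all 21 genes, 11 were called higher and 1 lower in ho1C2 in the dark (52.4% and 4.76%, against 2.77% and 0.67% of all tested genes), and 15 and 1 at 0.5 h (71.4% and 4.76%, against 10.8% and 2.21%). With BV, 16 of the 21 were at least 2-fold higher in hmox1 than in 4A+ (76.2%, against 3.89% of all genes), again in libraries that did not choose them.

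The 24 genes past 2-fold below hmox1 in ho1C2 only were chosen for a difference between the lines at 4 h. Their counts in ho1C1 against hmox1 use libraries that chose them and are a description. In ho1C1, 6 of them were called lower and 3 higher than hmox1 (25% and 12.5%, against 19.6% and 8.15% of all tested genes). Cre16.g661750 was at 1.5 and 2.01 RPKM in ho1C2, against 17.74 and 18.21 in ho1C1 and 26.34 and 20.5 in hmox1, with ho1C2 lower than ho1C1 by 2.79 (SE 0.12, adjusted p = 1.27e-11, limma). Cre16.g661850 was at 0.73 and 0.83 RPKM, against 7.54 and 8.23 in ho1C1 and 12.37 and 10.27 in hmox1 (ho1C2 minus ho1C1 -2.32, SE 0.1, adjusted p = 1.27e-11). In the dark and at 0.5 h Cre16.g661750 and Cre16.g661850 were at 0.08 RPKM or less in all 8 libraries of the lines. Cre17.g719150 was at 0.56 and 0.61 RPKM in ho1C2, against 3.37 and 2.91 in ho1C1, 7.8 and 6.53 in hmox1 and 16.84 and 13.81 in 4A+ (ho1C2 minus ho1C1 -1.38, SE 0.15, adjusted p = 9.75e-06). Against hmox1 these 3 genes were also lower in ho1C1, by -0.35 for Cre16.g661750, -0.47 for Cre16.g661850 and -0.98 for Cre17.g719150 (SE 0.12, 0.1 and 0.15, adjusted p = 0.0301, 0.00159 and 0.000155). The call for Cre16.g661750 in ho1C1 was lost in 7 of the 14 alternatives, with an adjusted p of up to 0.315 (without hmox1 replicate 1). Of the 24 genes, 3 were called lower in ho1C2 in the dark and 5 at 0.5 h (12.5% and 20.8%, against 0.67% and 2.21% of all genes). In 4A+ with BV 14 of the 24 fell at least 2-fold (58.3%, against 3.43%) and 4 rose (16.7%, against 5.22%). One that fell was Cre16.g661750, at 2.76 and 2.57 RPKM with BV, against 18.17 and 22.54 without.

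**Figure D4:**
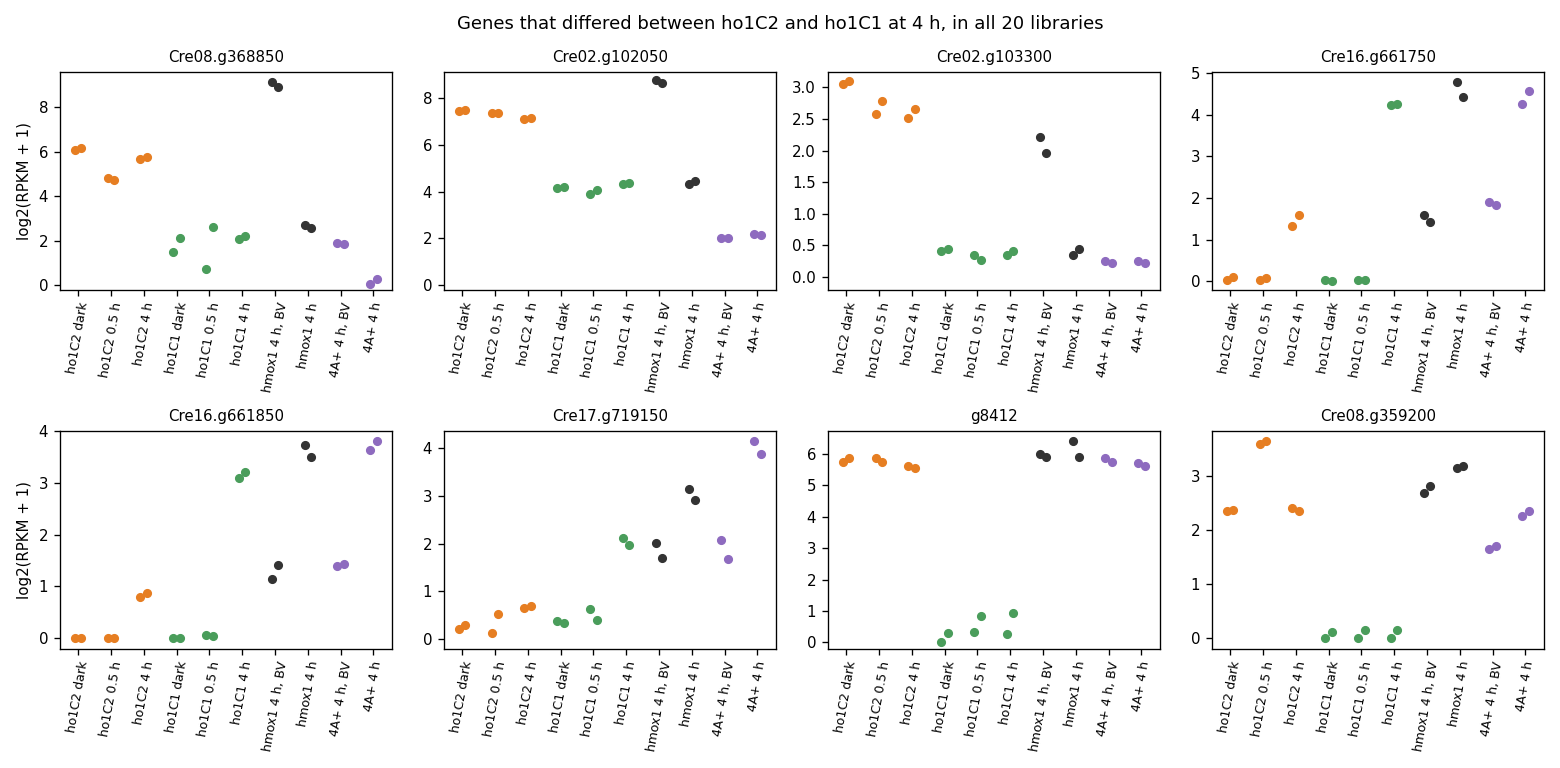
log2(RPKM + 1) in all 20 libraries (2 points per group) of the 8 genes named for a difference between ho1C2 and ho1C1 at 4 h. The first 3 panels are high in ho1C2 at every time and in hmox1 with BV, Cre16.g661750, Cre16.g661850 and Cre17.g719150 are low in ho1C2 at 4 h, and g8412 and Cre08.g359200 are near 0 in the 6 ho1C1 libraries.

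Few genes set ho1C1 apart from both ho1C2 and hmox1. The gene g8412 was at 47.76 and 45.6 RPKM in ho1C2, against 0.21 and 0.91 in ho1C1 and 83.95 and 58.47 in hmox1. The difference of ho1C2 minus ho1C1 was 4.97 at 4 h, 5.24 at 0.5 h and 5.66 in the dark (SE 0.22, adjusted p = 1.77e-08, 3.11e-08 and 1.04e-08, limma). Over its 6 libraries ho1C1 held 0 to 0.91 RPKM, while every other library of the series held at least 45.6. Cre08.g359200 was at 4.25 and 4.09 RPKM in ho1C2, against 0 and 0.1 in ho1C1 and 7.78 and 7.99 in hmox1 (ho1C2 minus ho1C1 2.3, SE 0.08, adjusted p = 1.86e-12), and it was at 0.1 RPKM or less in all 6 ho1C1 libraries. In ho1C2 this gene responded to light, with 11.06 and 11.46 RPKM at 0.5 h and 4.06 and 4.14 in the dark. At 4 h ho1C2 was itself lower than hmox1 for Cre08.g359200, by -0.78 (SE 0.08, adjusted p = 5.49e-07, limma). For g8412 that difference was -0.58 (SE 0.22, adjusted p = 0.0547), not called in the main fit but called in some alternatives.

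In the other direction 3 genes were higher in ho1C1 alone, named after their values were seen. Cre16.g674133 was at 0.1 and 0.06 RPKM in ho1C2, against 3.88 and 4.01 in ho1C1 and 0.24 and 0.12 in hmox1. Cre04.g221750 was at 0.37 and 0.23 RPKM in ho1C2, against 3.12 and 2.82 in ho1C1 and 0.61 and 0.53 in hmox1. Both were also high in ho1C1 in the dark, at 3 and 3.38 RPKM for Cre16.g674133 and 3.32 and 4.03 for Cre04.g221750, and the differences between the lines at 4 h were -2.20 and -1.61 (SE 0.09, adjusted p = 9.61e-12 and 8.97e-10, limma). Cre03.g162800 was the one gene past 2-fold in opposite directions. It was at 0.1 and 0.28 RPKM in ho1C2, against 4.15 and 3.67 in ho1C1 and 1.49 and 1.32 in hmox1, while 4A+ had 240.75 and 251.1. Its differences from hmox1 were -1.02 and 1.03 (SE 0.1, adjusted p = 3.91e-07 and 7.07e-07), just past 2-fold, and over the alternatives tried they ran from -2.45 to -0.91 in ho1C2 and from 0.96 to 1.41 in ho1C1.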

How the data were processed

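RNA was sequenced from 20 cultures in 10 groups of 2. The deposited table holds 1 column per library. The submitters' processing notes name STAR 2.3.0 and HTSeq without saying what each did; build, annotation and strand setting were not given in the sources used here. No header states a unit: that the authors deposited RPKM was inferred from the numbers themselves. RPKM removes gene length and library total, so a shift of a few abundant genes moves all others.

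After adding 1 to each RPKM and taking log2, limma 3.58.1 (R 4.3.3) was run with trend and robust moderation. A gene had to reach 1 RPKM in 2 libraries, which left out 3866. All 20 libraries entered 1 fit with 10 residual degrees of freedom and 12 comparisons. The test was checked on simulated data. Relative depth came from 1255 low values of 100 genes. Of these, 99.2% lay within 0.005 RPKM plus 2% of a whole multiple of a step, against 84.1% with shuffled factors. Factors and steps were chosen to raise this share on the same values, so it describes the fit and does not test it. No intervals are given, since absolute depth is unknown.

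Named genes are those with the largest changes in both lines (6 per direction, 5 RPKM or more in the highest group, no overlap) or in 1 line (3 per direction), genes under 1 RPKM in one group and at 10 or more in another, and neighbouring pairs. The RefSeq table of Chlamydomonas_reinhardtii_v5.5 matched 11713 IDs (66%), holds 0 symbols and gave gene order only; lists planned by gene name were therefore not analysed here. Members, lists and rules were chosen with earlier results of these data known. Alternatives were another pseudocount, filter, scaling, set of libraries, spread or moderation, the replicate number as a block, and each library left out. The dark and 0.5 h comparisons of the lines were added after seeing the data.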

Additional observations from a re-analysis of the deposited data

Results flagged for a closer look

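The responses of the 2 lines against hmox1 differed for 13 of the genes described, by the limma test of ho1C2 minus ho1C1 at 4 h, at an adjusted p under 0.05 and at least 2-fold. On the log2(RPKM + 1) scale the difference was 4.97 for g8412, 3.58 for Cre08.g368850, 2.79 for Cre02.g102050, 2.3 for Cre08.g359200 and 2.20 for Cre02.g103300, all higher in ho1C2. It was -2.79 for Cre16.g661750, -2.32 for Cre16.g661850, -2.20 for Cre16.g674133, -2.05 for Cre03.g162800, -1.61 for Cre04.g221750, -1.38 for Cre17.g719150, -1.30 for Cre14.g617400 and -1.15 for Cre14.g617450, all lower in ho1C2. Except for Cre14.g617400 and Cre14.g617450, these genes were named by rules that required this same difference between the lines. Their values here are therefore a description. Of all tested genes, 30 were higher and 34 lower in ho1C2 by at least 2-fold (0.216% and 0.245%). Groups of 2 libraries do not allow a check for single outlying samples.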

How the results depend on the processing

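Of the 14 counts, the numbers past 2-fold stayed within 1.5 times of their values in every alternative but the pseudocount, with the exception of the dark and 0.5 h libraries, which are other samples. With a pseudocount of 0.1, 364 genes were higher and 389 lower past 2-fold in ho1C2, 67 and 231 in ho1C1, 130 and 55 in ho1C2 against ho1C1, and 54 higher in both lines. At the adjusted p alone, a minimum of 5 RPKM gave 1471 higher in ho1C2, and median-ratio factors 1742 higher and 1752 lower in ho1C1. Fitting the 6 libraries alone, with 3 residual degrees of freedom, gave 480 higher and 1409 lower in ho1C1, 1256 higher in ho1C2, and 347 and 259 between the lines. A spread for each group gave 420 and 1251 in ho1C1 and 1142 and 1890 in ho1C2. Between the lines 384 genes were higher and 93 lower in the dark, 5 of them lower past 2-fold, and at 0.5 h 307 were lower, with 15 higher and 4 lower past 2-fold.

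Leaving out 1 library at a time gave, past 2-fold, 92 to 109 higher and 239 to 305 lower in ho1C2, 34 to 43 and 129 to 176 in ho1C1, 30 to 33 and 32 to 39 between the lines, and 28 to 37 and 114 to 158 in both lines. At the adjusted p it gave 1661 to 2640 and 2406 to 3395 in ho1C2, 583 to 1703 and 1725 to 3212 in ho1C1, and 555 to 1349 and 336 to 903 between the lines. The lowest counts between the lines came without a library of ho1C2 or ho1C1. For single named genes, 1172 values kept their side of the threshold, 23 lost it and 17 gained it. Of the 1172, 9 were differences called in neither fit whose sign changed. No named gene called against hmox1 changed direction in any of the 14 settings, and a minimum of 5 RPKM left out Cre04.g221750 and Cre16.g674133.

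Replicate numbers are shared between groups, but nothing says that they mark a common batch. The deviations of same-numbered libraries correlated at -0.1 between hmox1 and ho1C1, -0.04 between hmox1 and ho1C2 and 0.15 between the lines. Over all groups 16 of 45 pairs passed 0.1 (-0.1 to 0.33), most values were positive, and the highest was between the lines in the dark. Whether the numbers mark a common batch was not tested, and the main fit did not pair the samples by them. Every group holds both numbers, so a replicate block cannot change a log2 difference, and the counts past 2-fold were all but fixed. They were 92 higher and 249 lower in ho1C2 and 38 and 145 in ho1C1, as without it. At the adjusted p alone the block raised the counts, to 2357 higher and 3358 lower in ho1C2. In ho1C1 they became 1215 and 2943, and between the lines 1159 and 733.

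Depth limits values under about 1 RPKM most, in ho1C2 replicate 2 and both hmox1 libraries.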

Other observations

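The changes were spread unevenly over expression levels. Among 224 genes with a mean of 500 RPKM or more over all libraries, none was lower past 2-fold in either line. Only 3 were higher in both, 1.34% in each line. Among 5800 genes at 5 to 50 RPKM, 2.67% were lower and 0.845% higher in ho1C2, and 1.53% and 0.31% in ho1C1. Among 1095 genes at 50 to 500 RPKM the shares were 3.01% and 1.1% in ho1C2, and 1.74% and 0.731% in ho1C1. Among 6752 genes under 5 RPKM they were 0.903% and 0.415% in ho1C2, and 0.548% and 0.133% in ho1C1. Adding 1 to each RPKM shrinks differences most at such low levels, so the shares depend in part on the scale.

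Between the hmox1 libraries 39 genes were at least 2-fold apart, against 15 between those of ho1C2 and 9 between those of ho1C1. Cre08.g368850 was at 0.64 and 5.21 RPKM in ho1C1 at 0.5 h, the widest pair among its values in that line.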
